A study of Mus musculus with 18 samples.

Results

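The genes described here are 10 markers of universal and adventitial fibroblasts, namely Pi16, Dpp4, Efemp1, Tnxb, Ccdc80, Ccn5, Smoc2, Dpt, Clec3b and Ndn. They were chosen by their signal in these tumours, most of them being near background in control and high with both drugs, and they are 10 of the 18193 mouse genes that the arrays measured with a probe set of a single symbol. All 10 were measured. The tumours grew from MC38, a mouse colon carcinoma cell line, injected with Matrigel into the flank of C57BL/6-Ly5.1 mice aged 6 to 12 weeks, and they were taken on day 22. Control mice (5 tumours) received the vehicle MCT and a control IgG. The anti-CD40 group (4 tumours) received the vehicle and an agonist antibody against CD40, an activating receptor of antigen-presenting cells. The MEKi group (5 tumours) received GDC-0623, an inhibitor of the kinase MEK, at 30 mg/kg each day with the control IgG. The MEKi/CD40 group (4 tumours) received the inhibitor and the agonist antibody. Either antibody was given on treatment days 3, 5 and 7 and on the day before sampling. RNA came from whole pieces of tumour, 1 Affymetrix mouse expression array per animal, and since both the injected cells and the host are mouse the probes read transcripts of either source alike.

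Universal fibroblasts are a resident population found in many mouse tissues, recognised by Dpt together with Pi16 or Col15a1, and often described as a reserve from which other fibroblast states can arise. Those with Pi16 lie mainly in the adventitia around vessels and in the fascia under the skin, and many carry Dpp4, Cd34 and the Ly6 surface proteins. Most of their marker genes encode proteins of the extracellular matrix that sit on collagen fibrils, elastic fibres and basement membranes.

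Where these genes start is shown here for 4 of them. Pi16 and Tnxb passed, and Efemp1 and Dpt did not pass, a test described below of both drugs together against the sum of each alone. That test holds the arrays that chose the genes, so this split is a description and not independent evidence. The windows come from RefSeq on build GRCm38.p6, which held 6 of the 10 genes (also Dpp4 and Ndn), and each runs from 250 bases before the annotated start to 50 after it. The 4 printed here lie on the plus strand. Capitals mark matches, on either strand, to 7 short motifs. These were the AP-1 site TGANTCA, the TATA box TATAAA, the CCAAT box CCAAT, the GC box GGGCGG, the TEAD motif GGAATG, the E-box CAGCTG and the C/EBP-type motif TTGCNNAA.
Pi16, chr17:29318632-29318931: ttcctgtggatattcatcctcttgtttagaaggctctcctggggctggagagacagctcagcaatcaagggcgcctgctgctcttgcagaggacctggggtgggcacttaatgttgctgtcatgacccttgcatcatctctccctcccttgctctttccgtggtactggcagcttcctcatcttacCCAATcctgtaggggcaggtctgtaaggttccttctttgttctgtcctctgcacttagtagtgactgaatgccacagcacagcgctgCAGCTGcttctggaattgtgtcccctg
Tnxb, chr17:34670285-34670584: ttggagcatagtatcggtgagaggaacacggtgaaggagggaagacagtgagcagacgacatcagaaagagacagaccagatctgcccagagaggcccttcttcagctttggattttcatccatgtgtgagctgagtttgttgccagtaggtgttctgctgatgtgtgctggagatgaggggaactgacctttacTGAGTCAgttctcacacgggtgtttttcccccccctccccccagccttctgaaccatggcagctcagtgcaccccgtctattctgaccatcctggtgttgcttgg
Efemp1, chr11:28852955-28853254: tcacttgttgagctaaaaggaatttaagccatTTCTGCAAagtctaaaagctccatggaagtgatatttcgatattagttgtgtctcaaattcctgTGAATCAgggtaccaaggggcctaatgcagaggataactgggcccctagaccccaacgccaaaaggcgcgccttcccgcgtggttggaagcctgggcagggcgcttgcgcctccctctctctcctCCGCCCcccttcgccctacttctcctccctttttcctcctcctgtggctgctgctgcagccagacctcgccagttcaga
Dpt, chr1:164796413-164796712: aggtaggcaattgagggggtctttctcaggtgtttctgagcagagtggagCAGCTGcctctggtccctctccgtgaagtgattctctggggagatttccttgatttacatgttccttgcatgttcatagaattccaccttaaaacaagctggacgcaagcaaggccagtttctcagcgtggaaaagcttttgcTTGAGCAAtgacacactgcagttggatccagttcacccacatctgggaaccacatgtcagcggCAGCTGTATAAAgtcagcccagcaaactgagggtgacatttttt
No motif was shared by all 6 windows, and no matches overlapped within the 4 printed here. The C/EBP-type motif was in 3 of the 6 (Dpt, Efemp1 and Ndn) and in 10.8% of 32841 mouse promoter windows of the same length. The AP-1 site was in 2 of 6 (Efemp1 and Tnxb) and in 7.81% of all windows, the E-box in 2 (Pi16 and Dpt) and 16.3%, the TATA box in 2 (Dpt and Dpp4) and 13.6%, and the GC box in 2 (Efemp1 and Ndn) and 35.7%. The CCAAT box was in 1 of 6 (Pi16) and in 37.4% of all windows, and the TEAD motif in 1 (Dpp4) and 14.7%. A match here is a match of letters and was not tested for binding.

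Signals are deposited log2 values, so a difference of 1 is a doubling. They ran from 2.16 to 16.34, with 34.4% of all values at the lowest, and a value below 3 is treated here as the floor, where the true signal is not known. On each array 50.3 to 51.6% of probe sets lay below 3, and the arrays had medians of 2.73 to 2.96 and upper quartiles of 8.15 to 8.25. A fold is given as at least a size where values below 3 in the dimmer group were raised to 3 first. The numbers in the tumour labels fall into a lower and a higher run, whose meaning the labels do not state. All anti-CD40 and all MEKi/CD40 tumours are in the lower run, with 2 of 5 control and 2 of 5 MEKi tumours.

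Pi16 is the marker that names the adventitial state. Pi16, peptidase inhibitor 16 (probe set 1453839_a_at), read 3.10, 2.43, 2.48, 3.10 and 3.10 in control, 3.27, 3.15, 3.90 and 2.87 with anti-CD40, 2.48, 7.73, 5.90, 4.88 and 5.02 with MEKi, and 10.89, 10.47, 11.80 and 10.09 with MEKi/CD40. All 4 MEKi/CD40 tumours were above every other tumour, and the MEKi tumours spread from the floor to 7.73. The difference of MEKi/CD40 from control was 7.97 ± 0.36 (SE) on the log2 scale, at least 216-fold. In a bulk piece, fewer cells of a kind and less RNA per cell cannot be told apart, here and in every result that follows. This contrast chose the genes, so for all 10 it is given as a description with no test. The other Pi16 probe set, 1422026_at, stood at 2.16 on every array but MEKi/CD40 3, where it read 2.31, so the description of Pi16 rests on a single probe set.

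Dpp4 (1416697_at) encodes CD26, a dipeptidyl peptidase on the surface of interstitial fibroblast progenitors and of some lymphocytes. It read 3.65, 3.00, 3.33, 2.98 and 3.65 in control, 3.63, 3.79, 3.97 and 3.65 with anti-CD40, 3.33, 4.17, 3.65, 3.67 and 3.39 with MEKi, and 5.89, 6.92, 7.31 and 5.56 with MEKi/CD40. The single-drug groups overlapped control, and the combination did not overlap any group. It was 3.10 ± 0.39 above control with MEKi/CD40, at least 8.54-fold. The next probe set, 1441342_at, read 2.20, 3.12, 3.90 and 2.82 with MEKi/CD40.

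Among matrix genes of elastic fibres and collagen, Efemp1 and Tnxb differed in how they stood with MEKi alone. Efemp1 (1427183_at) encodes fibulin-3 and read 3.12, 2.35, 2.84, 3.63 and 2.91 in control, 3.71, 2.80, 5.90 and 2.89 with anti-CD40, 4.55, 8.14, 6.80, 5.28 and 5.93 with MEKi, and 9.99, 11.36, 11.38 and 10.35 with MEKi/CD40. Every MEKi tumour was above every control tumour, and every MEKi/CD40 tumour was above every MEKi tumour. Tnxb (1450798_at) encodes tenascin-X, which binds collagen fibrils, and read 2.23 in each control, 2.23, 2.23, 2.23 and 2.16 with anti-CD40, 2.23, 4.07, 2.41, 2.23 and 2.26 with MEKi, and 7.15, 9.01, 8.72 and 8.02 with MEKi/CD40. Outside MEKi/CD40 it left the floor in 1 tumour, MEKi 2. MEKi/CD40 stood 7.80 ± 0.38 above control for Efemp1 (at least 197-fold) and 5.99 ± 0.35 for Tnxb (at least 37.4-fold).

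Ccdc80, Ccn5 and Dpt had the highest mean signals of the members with MEKi alone. Ccdc80 (1424186_at), a secreted matrix protein, read 6.22, 5.09, 4.91, 5.19 and 4.92 in control, 4.21, 5.09, 8.39 and 5.03 with anti-CD40, 10.21, 10.11, 9.96, 9.18 and 9.49 with MEKi, and 11.13, 12.37, 11.46 and 11.29 with MEKi/CD40. The order MEKi/CD40, MEKi, then the rest held without overlap, and anti-CD40 3 was the one tumour between. Ccn5 (1419015_at), a matricellular protein of the CCN family, read 3.95, 3.94, 3.94, 3.94 and 4.62 in control, 4.55, 4.81, 6.66 and 7.07 with anti-CD40, 10.10, 9.03, 9.90, 7.83 and 8.19 with MEKi, and 12.08, 10.58, 10.12 and 11.25 with MEKi/CD40. The same order held, with MEKi/CD40 and MEKi meeting closely at 10.12 and 10.10. Dpt (1418511_at) encodes dermatopontin, which binds decorin and collagen and defines universal fibroblasts. It read 8.50, 9.63, 9.36, 8.52 and 10.89 in control, 9.56, 9.87, 8.96 and 11.05 with anti-CD40, 12.76, 11.78, 12.53, 11.18 and 11.41 with MEKi, and 12.82, 13.19, 12.60 and 12.84 with MEKi/CD40. Dpt was far above the floor in every tumour, controls included, and its MEKi and MEKi/CD40 tumours overlapped. Against control the MEKi/CD40 differences were 6.30 ± 0.36 for Ccdc80 (78.6-fold), 6.93 ± 0.39 for Ccn5 (122-fold) and 3.48 ± 0.50 for Dpt (11.2-fold).

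Clec3b, Smoc2 and Ndn were at or near the floor in nearly all tumours but those given both drugs. Clec3b (1449466_at) encodes tetranectin, a lectin that binds plasminogen, and read 2.46 to 2.48 in control, 2.48 in each anti-CD40 tumour, 2.72, 4.47, 2.95, 2.48 and 2.49 with MEKi, and 8.07, 8.87, 9.38 and 8.43 with MEKi/CD40. Smoc2 (1415935_at), a calcium-binding matrix protein related to SPARC, read 2.17 to 2.28 in control, 2.17 to 2.72 with anti-CD40, 2.17, 2.87, 2.47, 3.12 and 2.82 with MEKi, and 5.96, 6.90, 9.33 and 6.19 with MEKi/CD40. MEKi 2 was the one tumour of the first 3 groups to carry Clec3b above 3, and MEKi 4 the one to carry Smoc2 above 3. Ndn (1435382_at) encodes necdin, an imprinted growth suppressor of the MAGE family, and read 3.02, 2.79, 2.76, 3.01 and 2.76 in control, 2.85, 2.76, 4.87 and 2.68 with anti-CD40, 2.97, 4.95, 3.02, 3.07 and 2.76 with MEKi, and 6.38, 9.18, 9.82 and 7.72 with MEKi/CD40. Anti-CD40 3 and MEKi 2 stood above the rest of their groups and below every MEKi/CD40 tumour. MEKi/CD40 was above control by 6.22 ± 0.24 for Clec3b (at least 51.5-fold), 4.89 ± 0.66 for Smoc2 (at least 17.1-fold) and 5.41 ± 0.66 for Ndn (at least 38.6-fold). The second probe set of Smoc2, 1431362_a_at, read 5.08, 5.25, 8.64 and 5.10 with MEKi/CD40, and that of Ndn, 1415923_at, read 5.16, 7.97, 8.57 and 6.44.

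**Figure D1:**
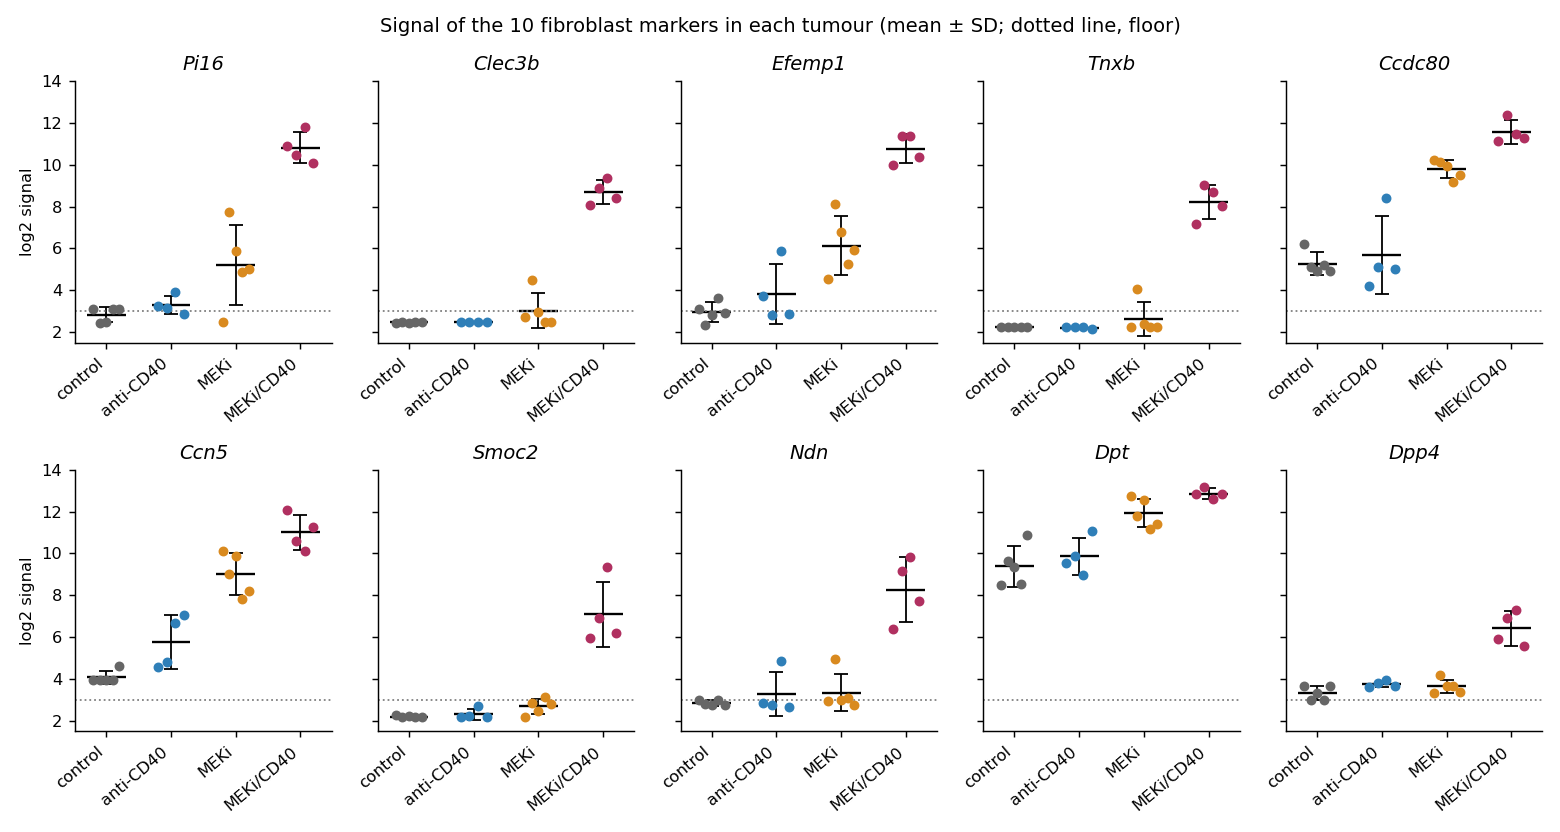
Log2 signal (vertical axes) of the 10 markers in each group (horizontal axes), where points are tumours, horizontal marks are means, bars are SD and the dotted line is the floor at 3. The MEKi/CD40 tumours lie above all control tumours for each of the 10 genes, for example 10.09 to 11.80 against 2.43 to 3.10 for Pi16.

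For the whole set, no MEKi/CD40 value lay below 3, while 7 of 10 genes had at least 1 control tumour below it and 3 of 10 (Clec3b, Tnxb and Smoc2) had all 5. In this contrast 5.50% of probe sets were called higher and 9.37% lower (limma, Benjamini-Hochberg adjusted p under 0.05, which is what called means here), a background from which nothing is read about genes it chose. The mean log2 value of the 10 genes was 3.61 to 3.97 in control, 3.87 to 5.01 with anti-CD40, 5.29 to 6.73 with MEKi and 9.04 to 10.19 with MEKi/CD40.

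MEKi was then set against anti-CD40, the one comparison of groups that holds no array of the contrast behind the choice. Ccdc80 rose with MEKi relative to anti-CD40, by 4.11 ± 0.82 (17.3-fold, limma adjusted p = 0.0373), and was the 1 of 10 genes called, where 2.83% of probe sets were called higher and 2.26% lower. Ccn5 (3.24 ± 0.74, limma adjusted p = 0.0528) and Dpt (2.07 ± 0.51, adjusted p = 0.0638) did not overlap between the groups and did not pass. The share of all probe sets without overlap was not counted. Efemp1 stood at 2.32 (adjusted p = 0.231) and Pi16 at 1.90 ± 0.96 (adjusted p = 0.372). The other 5 genes differed by -0.12 (Dpp4) to 0.54 (Clec3b). Without adjustment 4 of 10 genes had a p under 0.05, as did 4579 of 18193 genes over the whole array, and the median difference of the 10 was 1.22 against 0 over all 18193 genes. The latter median is no background for expressed genes, since 46.6% of tested probe sets were below 3 on every array. The Ccdc80 call was lost without any 1 of the 5 MEKi tumours or without anti-CD40 1, 2 or 4 (adjusted p at most 0.112), and the difference then ran from 3.62 to 4.26. All anti-CD40 tumours and 2 of 5 MEKi tumours are in the lower run of label numbers, and the call was also lost when the run entered the fit as a block (4.48, adjusted p = 0.138) or when only lower-run tumours were fitted (4.48, adjusted p = 0.251). Its second probe set, 1424187_at, gave 2.04 (adjusted p = 0.0328).

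Against control, MEKi raised 4 of the 10 genes, where 3.99% of probe sets were called higher and 3.83% lower. These were Ccdc80 (4.52 ± 0.31, 23.0-fold, adjusted p = 0.00104), Ccn5 (4.93 ± 0.46, 30.5-fold, adjusted p = 0.00301), Efemp1 (3.17 ± 0.64, at least 7.94-fold, adjusted p = 0.0244) and Dpt (2.55 ± 0.52, 5.86-fold, adjusted p = 0.0256), by limma with Benjamini-Hochberg adjustment. In each of the 4, all MEKi tumours were above all control tumours, though how many probe sets over the whole array did so was not counted. Pi16 was at 2.36 ± 0.84 (adjusted p = 0.142), Smoc2 at 0.48 (adjusted p = 0.121), and Clec3b, Tnxb, Ndn and Dpp4 at 0.55, 0.41, 0.49 and 0.32 (adjusted p from 0.490 to 0.629). The control tumours here also entered the contrast that chose the genes. Without MEKi 1, the one MEKi tumour with Pi16 at the floor, Pi16 (3.04, adjusted p = 0.0392) and Smoc2 (0.61, adjusted p = 0.0382) were called. Dpt lost its call without any of control 1 to 4 or MEKi 1 to 3, and Efemp1 without control 1, 2 or 3 or MEKi 3, with adjusted p-values of at most 0.0641. Within the lower run of label numbers, 2 tumours a group, the differences were 4.51 (Ccdc80), 5.62 (Ccn5), 3.61 (Efemp1) and 3.20 (Dpt), and none was called (limma adjusted p from 0.233 to 0.693). That fit called 46 of 45037 probe sets.

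Anti-CD40 alone called none of the 10 genes against control, and by limma 0% of probe sets were called higher. Without adjustment 2 of the 10 had a p under 0.05, Ccn5 (1.69 ± 0.57, limma adjusted p = 0.791) and Dpp4 (0.44 ± 0.18, adjusted p = 0.879), and 1127 of 18193 genes did so over the whole array. The remaining 8 genes ran from -0.02 (Tnxb) to 0.85 (Efemp1), with a median of 0.43 for the 10. A single tumour, anti-CD40 3, carried much of what there was. It held the highest value of its group in 5 of the 10 genes, values below 3 not counted (Smoc2, 2.72). Without it Ccdc80 was at -0.49, Smoc2 at -0.02 and Ndn at -0.10.

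Added to MEKi, the antibody raised 8 of the 10 genes, where 0.737% of probe sets were called higher. Pi16 rose by 5.61 ± 0.99 (at least 45.5-fold, adjusted p = 0.0401), Clec3b by 5.67 ± 0.48 (at least 42-fold, adjusted p = 0.0120) and Tnxb by 5.58 ± 0.53 (at least 32.2-fold, adjusted p = 0.0155). Ndn rose by 4.92 ± 0.80 (at least 29.2-fold), Smoc2 by 4.40 ± 0.69 (at least 16.8-fold), Efemp1 by 4.63 ± 0.75 (24.8-fold), Dpp4 by 2.78 ± 0.39 (6.86-fold) and Ccdc80 by 1.77 ± 0.32 (3.42-fold), with limma adjusted p-values of 0.0268 to 0.0421. Ccn5 did not overlap between the groups (2.00 ± 0.62, limma adjusted p = 0.148), and Dpt did (0.93 ± 0.36, adjusted p = 0.241). Overlap was not counted over all probe sets. Ccdc80, Ccn5 and Dpt, which were called with MEKi against control, had the 3 smallest differences. Efemp1, also called there, had 4.63. The MEKi/CD40 tumours are those of the contrast that chose the genes, so neither the count nor the direction is independent of that choice. Nothing is read from them beside the background. The count fell to between 1 and 5 without any 1 of the 9 tumours, with Clec3b called in each of the 9 runs and differences from 4.93 to 6.24 for Pi16 and from 4.23 to 5.13 for Efemp1. These runs called 29 to 850 of 45037 probe sets, so the fall is not read as particular to the 10 genes. Within the lower run of label numbers, with 2 MEKi tumours, Pi16 was at 5.71, Clec3b at 5.09, Tnxb at 5.08 and Ndn at 4.32, and none of the 10 was called (limma adjusted p at least 0.320). That fit called 10 of 45037 probe sets.

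Set against anti-CD40 alone, MEKi/CD40 raised all 10 genes, with adjusted p-values of 0.00132 (Clec3b) to 0.0189 (Ndn) by limma and 4.42% of probe sets called higher. Pi16 rose by 7.52 ± 0.42 (at least 179-fold, adjusted p = 0.00197), Efemp1 by 6.94 ± 0.78 (at least 117-fold) and Dpp4 by 2.66 ± 0.41 (6.32-fold). The groups did not overlap for any of the 10, and the share of all probe sets without overlap was not counted. The genes were chosen for high signal in these same 4 MEKi/CD40 tumours, so the count and its direction largely follow from that choice and nothing is read from them beside the background. The same MEKi/CD40 tumours serve here and above, so the comparisons with each single drug are not independent of each other. Ndn lost its call without anti-CD40 1, 2 or 4 or MEKi/CD40 2 (adjusted p at most 0.0649), while the other 9 genes were called in all 8 runs. Both groups lie wholly in the lower run of label numbers.

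**Figure D2:**
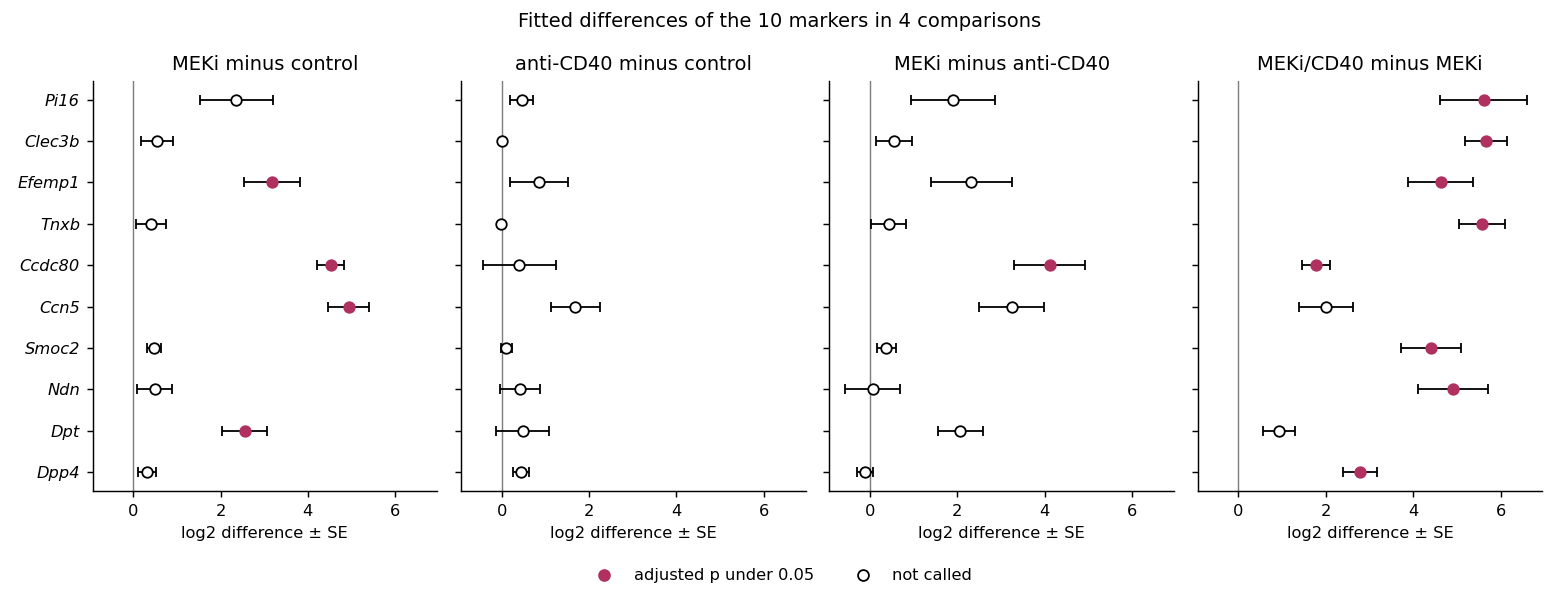
Fitted log2 differences (horizontal axes, bars are SE) of the 10 markers (vertical axis) in 4 comparisons, with filled points for an adjusted p under 0.05. The filled points are 4 for MEKi minus control (Ccdc80, Ccn5, Efemp1 and Dpt), 0 for anti-CD40 minus control, 1 for MEKi minus anti-CD40 (Ccdc80) and 8 for MEKi/CD40 minus MEKi.

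Whether both drugs together differed from the sum of each alone was asked with an interaction term over all 18 arrays. By this term 6 of the 10 genes were called higher, where 1.06% of probe sets were. These were Clec3b (5.66 ± 0.48, adjusted p = 0.000106), Tnxb (5.60 ± 0.54, adjusted p = 0.000284), Smoc2 (4.29 ± 0.70, adjusted p = 0.00868), Dpp4 (2.34 ± 0.43, adjusted p = 0.0140), Pi16 (5.15 ± 1.03, adjusted p = 0.0189) and Ndn (4.50 ± 0.93, adjusted p = 0.0215) by limma. For Clec3b the single-drug differences summed to 0.56 and the combined one was 6.22, and for Pi16 they summed to 2.82 against 7.97. The sums and combined values were close for Ccn5 (6.62 and 6.93, interaction 0.30) and Dpt (3.03 and 3.48, interaction 0.45), both far from passing (adjusted p = 1 and 0.868). Efemp1 (3.78 ± 1.01, adjusted p = 0.0637) and Ccdc80 (1.36, adjusted p = 0.597) did not pass either. The term holds the arrays that chose the genes, so it is not independent of that choice. Clec3b, Tnxb and Smoc2 were below 3 in all control and anti-CD40 tumours and in 4 of 5 MEKi tumours. Ndn was below 3 in 3 of 5 control, 3 of 4 anti-CD40 and 2 of 5 MEKi tumours. For Pi16 it was 2 of 5 control, 1 of 4 anti-CD40 and 1 of 5 MEKi tumours (MEKi mean 5.20). Dpp4 was below 3 in 1 of 5 control tumours. The size of the term is therefore not exact for any of the 6 genes called. With the next probe set, which 5 of the 10 genes have, Pi16 (0.04, adjusted p = 0.686), Ndn (3.22, adjusted p = 0.0591) and Dpp4 (0.83, adjusted p = 0.189) were not called and Ccdc80 was (2.27, adjusted p = 0.0175). Ndn was not called without anti-CD40 2 (4.32, adjusted p = 0.0512). Efemp1 was called without anti-CD40 3 (4.47, adjusted p = 0.0273) or MEKi 2 (4.28, adjusted p = 0.0349), and Ccdc80 without anti-CD40 3 (2.26, adjusted p = 0.0390). Within the lower run of label numbers Clec3b alone was called (5.08, limma adjusted p = 0.0426), while Pi16 stood at 5.17, Tnxb at 5.09 and Smoc2 at 4.48. That fit called 56 of 45037 probe sets.

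**Figure D3:**
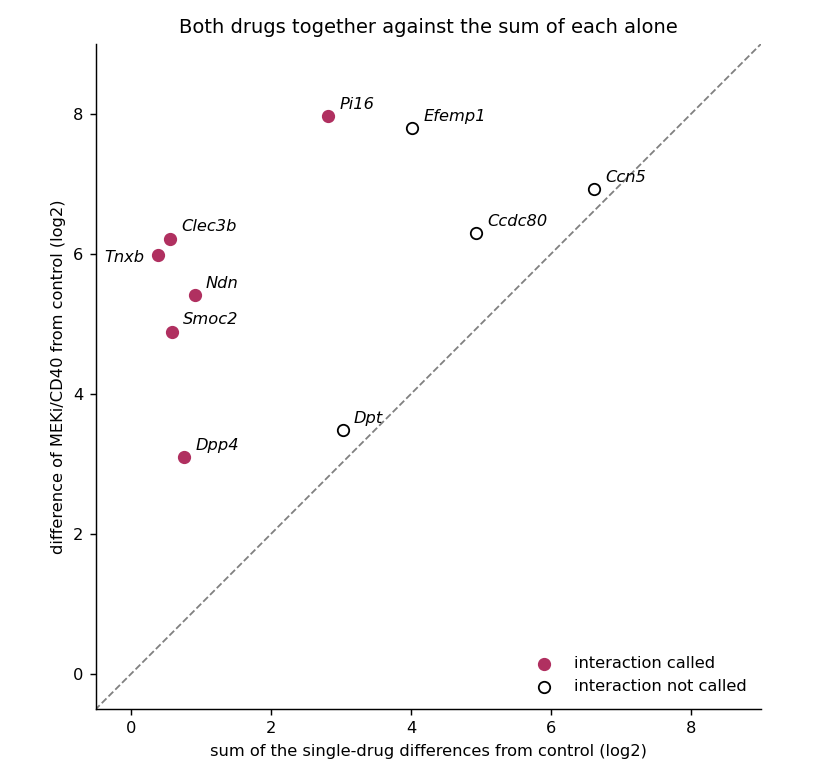
Difference of MEKi/CD40 from control (vertical axis, log2) against the sum of the 2 single-drug differences from control (horizontal axis, log2) for the 10 markers, with a dashed line where they are equal and filled points where the interaction was called. Clec3b (0.56 and 6.22) and Tnxb (0.39 and 5.99) lie far above the line, and Ccn5 (6.62 and 6.93) and Dpt (3.03 and 3.48) lie near it.

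Over the 18 tumours the 10 genes moved together, with Pearson's r of 0.59 to 1.00 over their 45 pairs (median 0.89), a description that shares arrays and is carried by the group differences. After each group's mean was taken away, the pairs ran from -0.45 to 0.92 (median 0.41). MEKi 2 lay 0.99 above its group over the 10 genes and held the highest value of its group in 6. Anti-CD40 3 lay 0.76 above its group and MEKi/CD40 3 lay 0.62 above, while MEKi/CD40 1 lay -0.54 from its group's mean. The genes outside the set that tracked its mean most closely were Lbp, which encodes the lipopolysaccharide-binding protein (r = 0.990 over 18 arrays), the dipeptidase gene Dpep1 (0.979), Dact1 (0.973) and Itih5, which encodes a hyaluronan-binding protein (0.969). They were followed by the ficolin gene Fcna (0.962), Atp8b1 (0.958), Prg4, which encodes lubricin (0.958), and the aggrecanase gene Adamts5 (0.957). Lbp averaged 4.01 in control, 4.37 with anti-CD40, 6.00 with MEKi and 9.96 with MEKi/CD40, and Dpep1 averaged 2.21, 2.30, 3.23 and 6.80.

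Other markers of universal and adventitial fibroblasts were measured for 19 genes outside the set. This list and those below were written with earlier results of these data known, so their counts are a description and not independent support. With MEKi/CD40 against control, the contrast that chose the 10 genes, 9 of the 19 rose, 0 fell and 10 stayed below the threshold. Of all 18193 genes 1392 were called higher and 2188 lower. The median of the 19 was 1.47 against 0 over all genes. As 46.6% of tested probe sets were below 3 on every array, that 0 is no background for expressed genes. Adgrd1, an adhesion G protein-coupled receptor, rose by 6.10 ± 0.32 (at least 51.1-fold, limma adjusted p = 0.000286), and Mfap5, a microfibril protein, by 6.02 ± 0.22 (adjusted p = 0.000152). Pcolce2, which enhances procollagen processing, rose by 4.13 (at least 14.9-fold), and Cd55, which protects cells from complement, by 4.12 (at least 13.5-fold). MEKi against control raised 6 of the 19 and lowered 1, where 1107 of 18193 genes were called higher and 926 lower. The risers included Cd55 (3.09), Mfap5 (3.81) and Adgrd1 (3.76), and the one that fell was Col14a1, a fibril-associated collagen (-1.68 ± 0.20, adjusted p = 0.00535). With the antibody added to MEKi 3 of the 19 rose, Pcolce2 (3.99, limma adjusted p = 0.0120), Col14a1 (2.79, adjusted p = 0.0290) and Mfap5 (2.20, adjusted p = 0.0303). Here 178 of 18193 genes were called higher. By the interaction term Pcolce2 (4.14, limma adjusted p = 0.000106), Col14a1 (2.83, adjusted p = 0.00843) and Anxa3 (0.61, adjusted p = 0.0373) were called, where 177 of 18193 genes were called higher. Col14a1 thus averaged 9.45 in control, 9.41 with anti-CD40, 7.77 with MEKi and 10.57 with MEKi/CD40, lowest with MEKi and highest with both drugs. Col15a1, the marker of the other universal fibroblast state and named here after its values were seen, averaged 2.89, 2.81, 2.87 and 3.36 in the same order of groups, with 4 of 5, 3 of 4, 4 of 5 and 2 of 4 tumours below 3. MEKi against anti-CD40 raised 6 of the 19 and lowered Col14a1 (-1.63, adjusted p = 0.00796), MEKi/CD40 against anti-CD40 raised 10 and lowered 0, and anti-CD40 against control called 0 by limma (1 of 19 with an unadjusted p under 0.05). In the same order 743, 1062 and 0 of 18193 genes were called higher, and 562, 1649 and 0 lower.

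General fibroblast genes mostly had high signal in every group, with Lum at a control mean of 4.54 and Thy1 at 7.16 the lowest of them. Over 12 pan-fibroblast markers the mean log2 value was 11.11 to 11.59 in control, 11.36 to 12.05 with anti-CD40, 12.23 to 12.86 with MEKi and 13.21 to 13.47 with MEKi/CD40. Its group mean stood 1.97 above control with MEKi/CD40 and 1.19 with MEKi. With MEKi/CD40 against control 11 of the 12 rose and 0 fell (median 1.18), from Lum, the proteoglycan lumican (6.16), and Col1a1 (5.24) to Col3a1 (0.54). Of all 18193 genes 1392 were called higher in this contrast and 2188 lower. With the antibody added to MEKi 1 of the 12 rose, Col5a1 (0.88, limma adjusted p = 0.0336), while 12 of 12 differences were above 0 (median 0.58) and 9 had an unadjusted p under 0.05. Of all 18193 genes 178 were called higher there, 53.3% of differences were above 0 and 3642 had such an unadjusted p. Values of Col3a1, Dcn, Sparc and Col1a2 reached group means of 14.48 to 15.65 with MEKi/CD40, near the top of the array's range of 16.34. Of 13 myofibroblast markers 8 rose with MEKi/CD40 against control, among them Col12a1 (4.45), Acta2, the smooth muscle actin (2.63), Fap (2.79) and Cthrc1 (5.23, at least 26.1-fold). Of 11 inflammatory fibroblast markers 7 rose, among them Ptx3 (7.01, at least 121-fold), Saa3 (7.08), Cxcl12 (5.40) and Cxcl1 (3.41). With the antibody added to MEKi 1 of the 13 (Acta2, 2.03, adjusted p = 0.0358) and 0 of the 11 were called, with 7 and 6 having an unadjusted p under 0.05 and medians of 1.20 and 1.39.

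Relatives of the 10 genes by protein family were called in part. Of 22 measured relatives, 9 rose with MEKi/CD40 against control, 0 fell and 13 did not pass (median 1.00). In this contrast 1392 of 18193 genes were called higher. Of the fibulins, Fbln2 rose by 5.43 ± 0.69 and Fbln5 by 3.70 ± 0.50, and of the CCN family Ccn2 rose by 2.28 ± 0.15, all with limma adjusted p-values of at most 0.00371. Among the dipeptidyl peptidases Dpp7, Dpp8 and Dpp9 had group means between 8.36 and 9.79 in every group, and Dpp7 was the one of the relatives called by the interaction (0.75, limma adjusted p = 0.0258). By that term 177 of 18193 genes were called higher. Smoc1 averaged 4.45 in control and 5.19 with MEKi/CD40, against 2.21 and 7.10 for Smoc2. With MEKi against control 3 relatives were called higher, Fbln5 (3.09), Fbln2 (3.28) and Sparc (0.61), where 1107 of 18193 genes were.

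Markers of other cells in the pieces were read beside these results. The mean of 9 adipocyte markers was 3.66 to 4.43 in control, 3.40, 4.25, 6.33 and 3.72 with anti-CD40, 4.05 to 5.60 with MEKi, and 4.35, 11.25, 5.96 and 7.38 with MEKi/CD40. MEKi/CD40 1, whose adipocyte mean of 4.35 is inside the control range, read 10.89 for Pi16, 9.99 for Efemp1 and 7.15 for Tnxb. Anti-CD40 3, the highest of its group for 5 of the 10 genes with values below 3 not counted, was also the highest of its group in adipocyte signal. With the 3 tumours of highest adipocyte signal left out (anti-CD40 3, MEKi/CD40 2 and 4), Pi16 stood 6.14 above MEKi and 8.25 above anti-CD40, Clec3b 5.70 and 6.25, and Ndn 4.75 and 5.34. With 2 MEKi/CD40 tumours remaining, 1 of the 10 genes (Clec3b) was called against MEKi, 2 (Pi16 and Ccdc80) against anti-CD40 and 6 by the interaction. With the adipocyte mean as a covariate the counts were 2, 5 and 6. In the same order 379, 407 and 1032 of 45037 probe sets were called without the 3 tumours. With the covariate 137, 2387 and 1010 were. The mean of 17 skeletal muscle markers was 7.28 in MEKi/CD40 4 and at most 2.99 elsewhere, and that tumour lay -0.40 from its group's mean over the 10 genes. All 8 mesothelial markers were below 3 on every array, as were 9 of 10 epithelial ones. The 5 proliferation markers all fell with MEKi/CD40 against control (median -1.36). The mean of 9 leukocyte markers was 10.72 to 11.11 in control, 9.70 to 10.49 with MEKi and 10.17 to 11.52 with MEKi/CD40. In the same contrast pericyte markers had 1 of 8 called higher and 0 lower, with 2 of 8 differences above 0 (median -0.54). Endothelial markers had 2 of 10 called higher, Tek (2.38) and Eng (0.77), and 0 lower, with 5 of 10 above 0 (median 0.13). This contrast, MEKi/CD40 against control, had 1392 of 18193 genes called higher, 2188 called lower and 57.1% of differences above 0. Epidermis markers averaged 2.90 to 3.21 in control, 3.29 to 4.35 with MEKi and 3.42 to 4.18 with MEKi/CD40, and the part of skin and fascia in the pieces was not tested.

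**Figure D4:**
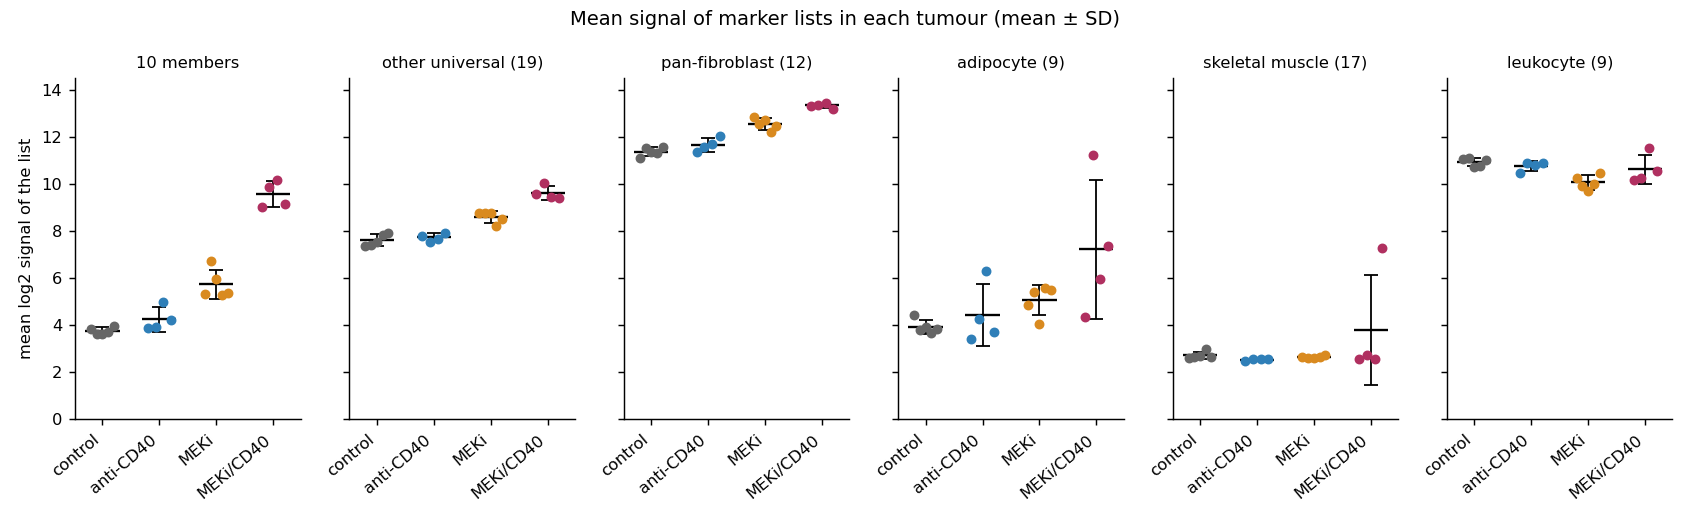
Mean log2 signal (vertical axis) of the 10 markers, of 19 other universal, 12 pan-fibroblast, 9 adipocyte, 17 skeletal muscle and 9 leukocyte markers in each group (horizontal axes), where points are tumours, horizontal marks are means and bars are SD. The 10 markers and the pan-fibroblast list are highest in all 4 MEKi/CD40 tumours, while adipocyte signal varies among those tumours from 4.35 to 11.25 and muscle signal is high in 1 of them.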

How the data were processed

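Whole MC38 tumours of 18 mice were profiled on Affymetrix mouse expression arrays after 3′ IVT labelling. The authors processed the arrays with RMA in Chipster and deposited the log2 signal intensities analysed below, as 1 value per probe set and array (version not given in the sources used here). Because 34.4% of values share the lowest level, which RMA alone rarely gives, how background was handled is not settled. Of 45101 probe sets 64 controls were set aside and 45037 tested, with no filter. Of these, 34945 carried 1 symbol, 932 several and 9160 none. Symbols were checked against GRCm38.p6 through gene identifiers (34741 matched, 0 changed). The probe set of highest mean over all arrays stood for a gene, with _x_at sets passed over. As in the study's methods, pairs of groups were fitted separately by empirical Bayes (limma 3.58.1, R 4.3.3, statmod 1.5.0), with a model of all 18 arrays for the interaction, 2-sided, Benjamini-Hochberg adjusted over all probe sets, and called at an adjusted p under 0.05. Residual degrees of freedom were 6 to 8 for pairs and 14 for the interaction, to which the moderation added 0.351 to 0.393. The number of arrays limits the precision. The fits were tested on simulated data. No pair of arrays held identical values. The members and gene lists were chosen with earlier results of these data known. Named were all 10 members in every comparison, up to 4 genes per list and comparison in order of unadjusted p, and the 8 genes most correlated with the members' mean. Exceptions are marked, apart from Dpp8, Dpp9 and Smoc1, relatives named for their families. Alternatives were other normalizations, floors, moderation, fits, probe sets, blocks, an adipocyte covariate and left-out arrays, and counts over the lists were added after seeing the data.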

Additional observations from a re-analysis of the deposited data

Results flagged for a closer look

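Of 34 sets tested, each the 4 or 5 tumours of a group for 1 of the 10 genes, 6 had a single tumour far from the others. The rule is meant to flag about 1 in 20 sets by chance. The sets share tumours and some hold tied or floor values, so that rate is not known to hold here. MEKi 2 was that tumour for 3 genes that were otherwise at or near the floor with MEKi. These were Clec3b (4.47, the others at most 2.95), Tnxb (4.07, the others at most 2.41) and Ndn (4.95, the others at most 3.07). Anti-CD40 3 stood apart for Ndn (4.87, the others at most 2.85). Control 1 stood apart for Ccdc80 (6.22, the others at most 5.19) and control 5 for Ccn5 (4.62, the others at most 3.95).

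For 6 genes the interaction term of limma, the difference in the antibody's effect between tumours with and without the inhibitor, passed the threshold. The term was 5.66 for Clec3b, 5.60 for Tnxb, 5.15 for Pi16, 4.50 for Ndn, 4.29 for Smoc2 and 2.34 for Dpp4, on the log2 scale. The genes were chosen for high signal with MEKi/CD40 and mostly low signal in control, and both groups enter the term, so these values describe the chosen genes and are not independent evidence. Clec3b, Tnxb and Smoc2 were below 3 in all control and anti-CD40 tumours, and Pi16, Ndn and Dpp4 in some control tumours. This leaves the size of each term inexact. Within the lower run of label numbers 1 of the 10 genes was called, as were 56 of 45037 probe sets.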

How the results depend on the processing

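The number of the 10 genes called depended on the fit. For MEKi against anti-CD40, with 1 gene called, the count was 0 with the replicate block, with the label number series as a block, within the lower series alone and with trend and robust moderation, 2 after cyclic loess, after quantile normalization and with the adipocyte covariate, and 3 with a floor filter or all 4 groups in 1 fit. Of 45037 probe sets, 3, 153, 179 and 66 were called in the fits that gave 0. Those that gave 2 called 2595, 2505 and 3417. The floor filter called 4761 of 22884, and all 4 groups in 1 fit called 2720. For MEKi against control, with 4 called, it was 0 with the replicate block and within the lower series. Those fits called 0 and 46 of 45037 probe sets. For MEKi/CD40 against MEKi, with 8 called, it was 0 with the replicate block, the series block and within the lower series, 2 with trend and robust moderation and with the adipocyte covariate, 1 without the 3 tumours of highest adipocyte signal, and 4 with the next brightest probe set. Of 45037 probe sets, 0, 28 and 10 were called in the fits that gave 0. The fits that gave 2 called 11 and 137, and 379 were called without the 3 tumours. For MEKi/CD40 against anti-CD40, with 10 called, it was 4 with the replicate block, 2 without those tumours and 5 with the covariate. These fits called 1276, 407 and 2387 probe sets in all. The interaction, with 6 called, gave 1 within the lower series, 4 with the next brightest probe set and 7 with a floor filter, which added Efemp1 (limma adjusted p = 0.0252). For it the lower series called 56 probe sets in all and the floor filter 2053 of 24063. Fewer tumours were fitted in the lower series and without the 3 tumours, and the causes of the other shifts were not tested. Leaving out 1 tumour at a time, the counts ran from 0 to 1, 2 to 5, 1 to 5, 9 to 10 and 5 to 8 in the same order, and anti-CD40 against control gave 0 in every fit. In that order these runs called 197 to 1753, 1679 to 3326, 29 to 850, 2704 to 6594 and 618 to 1431 probe sets. For anti-CD40 against control at most 28 were called in any fit. The counts over all probe sets thus moved as well, and no shift is read as particular to the 10 genes.

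Some small differences changed sign. Ndn in MEKi against anti-CD40 ran from -0.33 to 0.59 over the left-out tumours, and was -0.06 with values below 3 raised to 3 and -0.37 with the covariate. In anti-CD40 against control, without 1 tumour, Ccdc80 ran from -0.49 to 0.90, Smoc2 from -0.02 to 0.16 and Ndn from -0.10 to 0.63, and they were -0.49, -0.02 and -0.10 without the 3 tumours of highest adipocyte signal, with Ccdc80 at -0.29 with the covariate. The interaction of Ccn5 ran from -0.10 to 0.74 and was -0.38 within the lower series, where that of Dpt was -0.20. Same-numbered tumours correlated at -0.30 to 0.231 over 25 pairs in their deviations from group means. Differently numbered tumours were not compared, so whether the replicate numbers pair the tumours is not settled. Without the 3 tumours of highest adipocyte signal, 7 of 12 pan-fibroblast (from 11) and 4 of 13 myofibroblast markers (from 8) were called higher in MEKi/CD40 against control, and with the replicate block 0 of either, as of the inflammatory list. Those fits called 3439 and 113 of 45037 probe sets. With the next probe set, which is at the floor for Pi16, Pi16 differed by 0.04 between MEKi/CD40 and control.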

Other observations

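Myofibroblast and inflammatory fibroblast genes were also called with MEKi alone. Against control 4 of 13 myofibroblast markers rose and 0 fell (median 0.94), Col12a1 by 3.25, Col11a1 by 3.13, Lrrc15 by 1.31 and Tagln by 1.14. Of all 18193 genes 1107 were called higher in this comparison. Of 11 inflammatory markers 5 rose and 1 fell (median 1.09), among them Ptx3 (4.19, at least 17.3-fold), Cxcl12 (3.05) and Cxcl1 (2.02), while the chemokine Ccl2 fell by 0.82. Against anti-CD40 3 of the 13 and 0 of the 11 were called by limma, with 6 and 4 having an unadjusted p under 0.05. Of all 18193 genes 743 were called higher there, and 4579 had such an unadjusted p. With anti-CD40 against control 0 of either list were called (0 and 1 unadjusted), and Saa3 stood at 3.01 ± 0.77 (adjusted p = 0.649). Of 10 endothelial markers 1, Cldn5, fell by limma with MEKi against control (-1.18, adjusted p = 0.0118) and against anti-CD40 (-2.34, adjusted p = 0.0193). The medians of the 10 were 0.06 and -0.08, with 6 and 4 differences above 0. Over the whole array 926 and 562 of 18193 genes were called lower. By the interaction 1 of the 10 was called, the vascular receptor gene Tek (2.05, limma adjusted p = 0.0458), where 177 of 18193 genes were called higher.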
